A study of Mus musculus with 6 samples.

Results

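The Wnt ligands, receptors and target genes described here are 45 genes, taken by symbol from the 55416 genes of the deposited count table. All 45 symbols matched 1 Ensembl identifier each. They were listed by their known function in the Wnt pathway, with Lgr6 included because it was already known to be strongly raised in these data, so its rise is described here and is no separate evidence. RNA was sequenced from primary keratinocytes, the main cells of the epidermis, in 3 libraries from Cebpb knockout (C/EBPβ -/-) and 3 libraries from wild type pups. Cebpb encodes the leucine zipper transcription factor C/EBPβ. In both groups the pups were C57BL/6J:129 hybrids aged 1 to 2 days, and the cells grew with epidermal growth factor and pituitary extract in 0.05 mM calcium, which holds back terminal differentiation. Both groups were irradiated under a 312 nm lamp with a UVB dose of 10 mJ/cm2, in a treatment begun 5 days after plating, and were collected 8 h later. No library without UVB was analysed here, so every difference is one of genotype after irradiation. Neither the origin of the replicates (animals or dishes) nor the deleted part of Cebpb is stated in the labels, so a p-value here measures only the spread among 3 libraries a side, which may be technical in kind.

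Wnt proteins are secreted growth factors that carry a lipid, attached by the acyltransferase Porcn, and travel to the cell surface on the carrier Wls. A Wnt bridges a Frizzled receptor and the co-receptor Lrp5 or Lrp6, which halts the complex of Apc, Axin and kinases that otherwise marks β-catenin (Ctnnb1) for destruction, and β-catenin then works with TCF/LEF factors on target genes. Several targets, among them Axin2, Nkd1, Rnf43 and Znrf3, feed back on the pathway, and the Lgr receptors counter Rnf43 and Znrf3 when they bind R-spondins. In skin the pathway is known for starting hair follicles and for keeping follicle and basal epidermal stem cells.

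Knockout cells had a different mix of Wnt ligand transcripts. Wnt9a, Wnt10b, Wnt11, Wnt7a, Wnt7b and Wnt10a rose, and Wnt3, Wnt4 and Wnt16 fell. Porcn, the enzyme that attaches the lipid of Wnt ligands, fell to 19.5 ± 1.10 CPM in knockout cells, against 89.3 ± 6.49 CPM in wild type cells (SD, n = 3 each). Of the 9 Frizzled receptor genes among the members 6 rose, by 0.38 to 0.98 log2 units, whereas the scarce Fzd9, which is no member, fell by 1.38 log2 units. Lgr6 rose by 4.60 log2 units. The feedback gene Axin2 fell by 0.48 log2 units, and Ctnnb1 stood at 1394 ± 15.1 CPM in knockout and 1380.1 ± 30.7 CPM in wild type cells. CPM (the unit of all levels below unless per kb is stated) are counts relative to library size, with the library sizes adjusted by TMM scaling, which treats the bulk of genes as even. A gene was called at an adjusted p under 0.05 by edgeR's quasi-likelihood test over all genes. Of all genes tested, 24.8% were called higher and 23.7% lower, which is the background for every count of called genes here.

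Of the 45 members, 16 were called higher, 6 were called lower, 17 were not called and 6 were too scarce to be tested. Over all 17659 genes tested, 24.8% were called higher and 23.7% lower, or 48.6% in either direction, so calls were common everywhere in this comparison. Lgr6, listed for its known rise, is counted among the 16 and among the 9 with at least 1 log2 unit given below. Among the 39 members tested the shares were 41.0% higher and 15.4% lower, or 56.4% in all. A call with at least 1 log2 unit was made in 9 members (23.1%), against 14.5% of all genes. The 2 groups did not overlap in 21 of the tested members (53.8%), which is close to the 56.4% of all genes. The median log2 fold change was 0.26 over the tested members and 0.01 over all genes. Members enter the test only if enough counts are present in a group, so these shares describe the tested members and not the whole list. The members were also chosen with earlier results of these data known, so the shares are a description and no test.

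Total counts ran from 81256192 to 92987497 in the knockout libraries and from 107757415 to 122797031 in the wild type libraries, and 3 counts correspond to at most 0.0349 CPM. Cebpb itself stood at 0.942 ± 0.143 CPM in knockout and 145 ± 21.9 CPM in wild type cells (SD, n = 3 each). Transcripts of 4 Y-linked genes summed to 0.101 to 0.158 CPM in knockout and 60.7 to 68.1 CPM in wild type libraries. Xist, the RNA that silences 1 X chromosome in female cells, was at 567, 589.9 and 604 CPM in the knockout libraries, against 415, 403 and 387 CPM in the wild type libraries. Xist was thus abundant in all 6 libraries and Y-linked transcripts in the wild type libraries alone, so the wild type libraries held RNA of both sexes and the sex make-up differed along with genotype. Keratinocyte markers (8 of 10 lower, Itgb4 higher and Cdh1 not called) summed to 25800 to 26800 CPM in knockout and 43000 to 48100 CPM in wild type libraries, mostly from Krt5 and Krt14. Melanocyte markers, 6 of 8 lower, summed to 609 to 691 CPM in knockout and 701 to 786 CPM in wild type libraries, mostly from Pmel, Tyrp1 and Dct. Fibroblast markers (2 of 9 lower, Lum at 0 counts) summed to 5.45 to 5.85 CPM in knockout and 6.54 to 9.67 CPM in wild type libraries, immune markers (1 of 8 higher and 2 lower, Cd3e at 0) to 2.72 to 2.86 and 3.60 to 5.71 CPM in the same order, and endothelial markers (1 of 5 lower, Cdh5 and Emcn at 0) to 4.46 to 5.32 and 6.43 to 6.92 CPM. Merkel cell and nerve markers (2 of 6 higher and 1 lower, none at 0 in every library) summed to 6.29 to 7.11 CPM in knockout and 3.41 to 4.32 CPM in wild type libraries. Among the lower calls, the immune marker Lyz2 had 1, 12 and 0 counts in the knockout libraries, against 163, 86 and 120 in the wild type libraries. The Merkel cell marker Sox2 had 3, 9 and 5 against 20, 33 and 24 in the same order. Both passed the filter on low counts through the wild type libraries, so their falls are only described. The part of these differences in the Wnt gene results was not tested, and in RNA of whole cultures fewer cells of a type and less RNA per cell cannot be told apart.

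**Figure D1:**
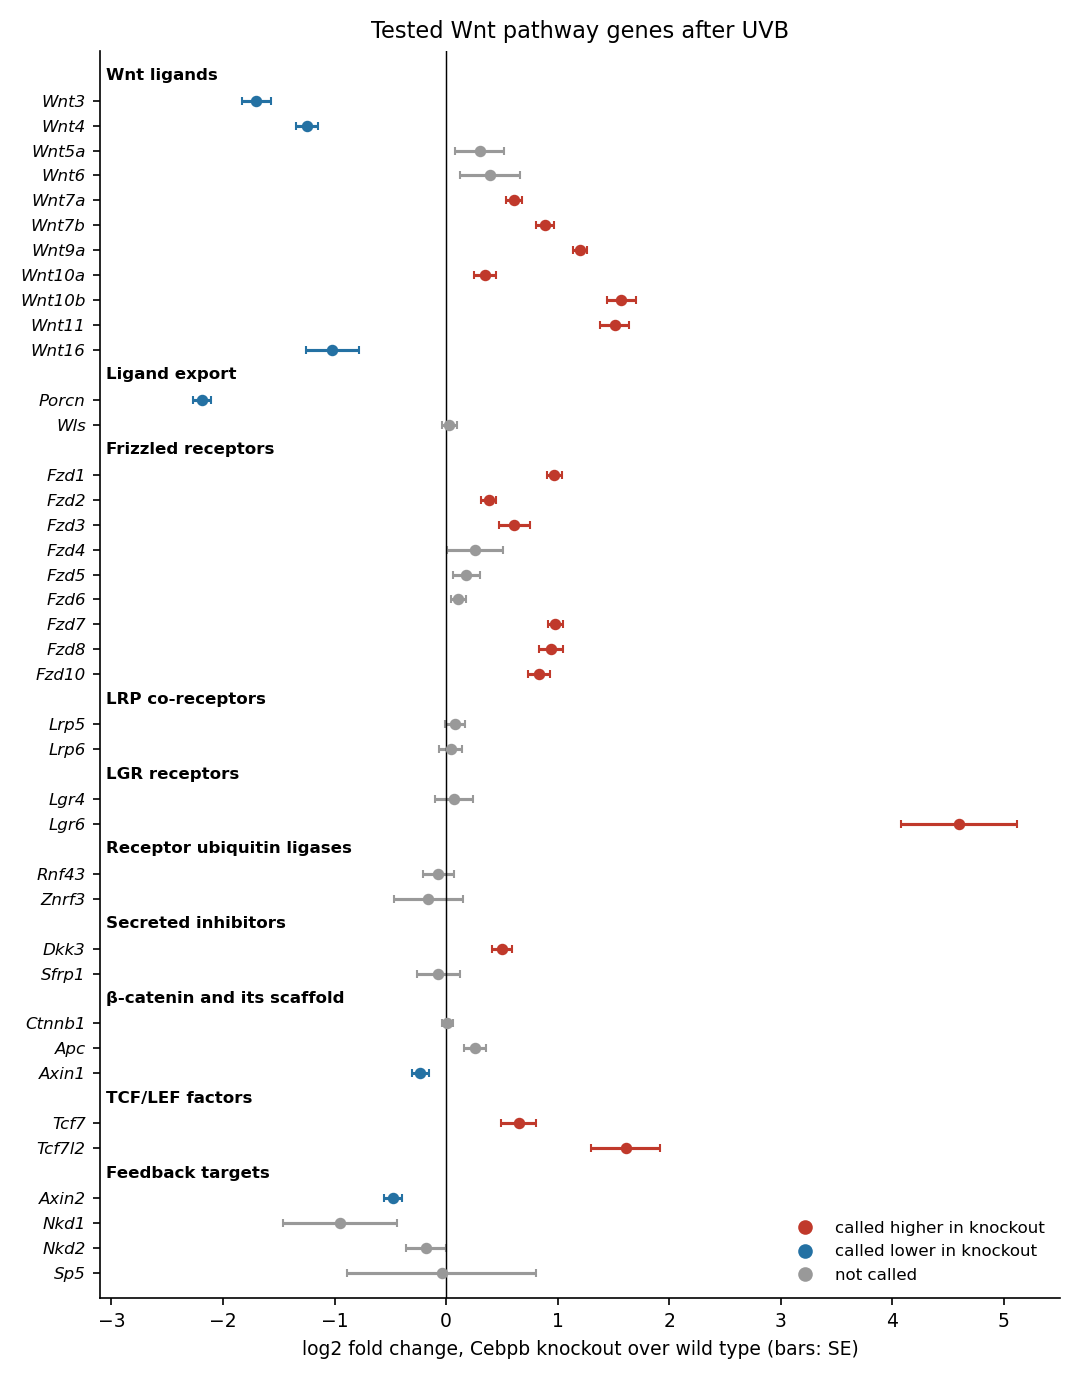
Log2 fold change (x axis, knockout over wild type, bars are SE) of the 39 tested members, grouped by role. Lgr6 lies at 4.60 and Porcn at -2.19, the 9 Frizzled members lie between 0.11 and 0.98 (Fzd9, no member, is not drawn), and the ligands run from -1.70 to 1.57.

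Promoter windows are shown for the called Lgr receptor and feedback gene and for the ligand with the largest change, as examples of a receptor, a readout of the pathway and a ligand. The sequences are RefSeq's on GRCm38.p6, an older build than the mm39 of the counts, and run from 250 bases before to 50 bases after the start site. Windows were at hand for 29 of the 45 members. Both strands were searched for a TCF/LEF core, written as CTTTG followed by a pair of bases that are each A or T, and for a C/EBP-type motif, TTGCNNAA. Capitals mark matches. The Wnt3 window holds 1 of each on the plus strand, with the C/EBP-type match beginning at -220 and the TCF/LEF core at 18 relative to the start site. The motifs share no bases there.
Lgr6 promoter (chr1:135105227-135105526, minus strand): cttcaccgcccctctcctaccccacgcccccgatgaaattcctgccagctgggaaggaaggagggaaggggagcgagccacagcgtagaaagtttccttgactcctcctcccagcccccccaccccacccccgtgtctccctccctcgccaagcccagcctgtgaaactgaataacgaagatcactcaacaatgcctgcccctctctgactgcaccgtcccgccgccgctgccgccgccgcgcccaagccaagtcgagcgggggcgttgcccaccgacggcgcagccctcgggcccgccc
Axin2 promoter (chr11:108920099-108920398, plus strand): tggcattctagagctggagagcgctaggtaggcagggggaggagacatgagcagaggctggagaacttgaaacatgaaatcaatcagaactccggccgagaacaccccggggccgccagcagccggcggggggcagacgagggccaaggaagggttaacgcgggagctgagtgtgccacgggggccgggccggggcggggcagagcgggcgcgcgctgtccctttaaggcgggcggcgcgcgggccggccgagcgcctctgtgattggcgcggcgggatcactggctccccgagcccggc
Wnt3 promoter (chr11:103773925-103774224, plus strand): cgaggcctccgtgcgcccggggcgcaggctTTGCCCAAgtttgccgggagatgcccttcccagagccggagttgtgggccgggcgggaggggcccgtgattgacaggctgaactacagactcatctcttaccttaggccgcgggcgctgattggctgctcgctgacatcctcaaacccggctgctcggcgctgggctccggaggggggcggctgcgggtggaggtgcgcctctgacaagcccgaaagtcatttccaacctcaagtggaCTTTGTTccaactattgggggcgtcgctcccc
Neither motif was found in the windows of Lgr6 and Axin2, which says only that these letters are not in these 300 bases. Over the 39 windows of members, 8 (20.5%) held a TCF/LEF core and 3 (7.69%) a C/EBP-type match. Over all 32851 windows the shares were 16.9% and 10.8%. The other C/EBP-type matches lay in Lgr4 and Fzd1, and the other TCF/LEF cores in Fzd7, Sp5 and Dkk1 and in 1 of the windows each of Wnt11, Lef1, Wnt5b and Tcf7l2.

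Of the 13 ligand genes, 6 rose and 3 fell. The remaining 4 were divided between 2 without a call and 2 too scarce to be tested, and the median over the 11 tested was 0.39 log2 units. Wnt9a, known for its part in joint formation, was at 149, 152 and 155 CPM in the knockout libraries, against 69.2, 64.7 and 64.2 CPM in the wild type libraries. The groups lay far apart with little spread within either (1.20 ± 0.06 log2 units, SE, edgeR adjusted p = 1.14e-10). Wnt10b, expressed in the placodes that start hair follicles, was at 10.0, 12.3 and 10.3 CPM in the knockout libraries, against 3.87, 3.81 and 3.29 CPM in the wild type libraries. It rose by 1.57 ± 0.13 log2 units, with every knockout library above every wild type library (edgeR adjusted p = 5.11e-08). Wnt11, a ligand mostly studied in β-catenin-independent signalling and cell movement, was at 12.2, 11.6 and 11.0 CPM in the knockout libraries, against 4.40, 3.33 and 4.52 CPM in the wild type libraries. Its rise of 1.51 ± 0.13 log2 units again left no overlap (edgeR adjusted p = 1.15e-07).

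The other rises among ligands were smaller. Wnt7b ran from 83.5 to 101 CPM in knockout and from 47.0 to 53.8 CPM in wild type libraries (0.89 ± 0.08 log2 units), and its relative Wnt7a from 40.3 to 44.3 and from 27.1 to 29.5 CPM in the same order (0.61 ± 0.07). Both are made by embryonic and adult epidermis. Wnt10a, which people need for normal teeth, hair and sweat glands, ran from 28.0 to 32.3 CPM in knockout and from 21.5 to 27.3 CPM in wild type libraries (0.35 ± 0.10, edgeR adjusted p = 0.00622). The gap between its groups was narrow, and the call was lost without wild type replicate 3 (0.27, edgeR adjusted p = 0.0528), while library totals in place of TMM gave 0.55.

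The 3 ligands that fell came in very different amounts. Wnt3, a β-catenin-activating ligand needed for the body axis, was at 3.35, 3.76 and 3.59 CPM in the knockout libraries, against 13.1, 11.0 and 10.7 CPM in the wild type libraries. It fell by 1.70 ± 0.13 log2 units (edgeR adjusted p = 1.47e-08), the largest change among the tested ligands and in the opposite direction to Wnt10b. Wnt4, which basal keratinocytes make, was at 37.5, 36.1 and 27.9 CPM in the knockout libraries, against 74.9, 86.0 and 80.0 CPM in the wild type libraries. Every knockout library was below every wild type one, and knockout replicate 6 was the lowest (log2 fold change -1.25 ± 0.10, edgeR adjusted p = 2.73e-08). Wnt16, known for its part in cortical bone, was scarce, at 0.914, 0.726 and 1.22 CPM in the knockout libraries, against 1.56, 2.38 and 1.83 CPM in the wild type libraries. It fell by 1.02 ± 0.24 log2 units, with a gap between the groups that was small beside the spread of the wild type libraries (edgeR adjusted p = 0.0022).

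Wnt5a, the classic ligand of β-catenin-independent signalling, was at 1.26 ± 0.120 CPM in knockout and 1.02 ± 0.166 CPM in wild type cells (SD, n = 3 each). Wnt6, a ligand of surface ectoderm, was at 1.01 ± 0.244 CPM in knockout and 0.776 ± 0.181 CPM in wild type cells. Neither was called (edgeR adjusted p = 0.287 for Wnt5a and 0.261 for Wnt6), and their groups overlapped. Wnt3a had 0, 0 and 4 counts in the knockout libraries, against 15, 6 and 2 in the wild type libraries. Wnt5b had 0, 5 and 4 counts in the knockout libraries, against 6, 1 and 4 in the wild type libraries. Both were near the floor of detection at this depth.

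Counts grow with transcript length, so ligands were set beside each other as CPM per kb of exon, a description with no test. Summed over the 13 ligands this level was 107 ± 3.20 in knockout and 74.7 ± 2.92 in wild type cells (SD, n = 3 each). Wnt9a took 42.7 ± 2.14% of that sum in knockout and 26.6 ± 1.48% in wild type cells, and Wnt4 took 7.53 ± 0.953% and 25.6 ± 1.42% in the same order. In wild type cells Wnt9a (19.8 ± 0.829 CPM per kb) and Wnt4 (19.1 ± 1.33) thus did not differ beyond their spread, whereas in knockout cells Wnt9a stood alone at 45.6 ± 0.928 CPM per kb. Wnt7b followed in knockout cells at 19.2 ± 1.92 CPM per kb, then Wnt7a (13.5 ± 0.684) and Wnt10a (12.4 ± 0.917), which lay close together, and Wnt4 came after these (8.06 ± 1.24).

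**Figure D2:**
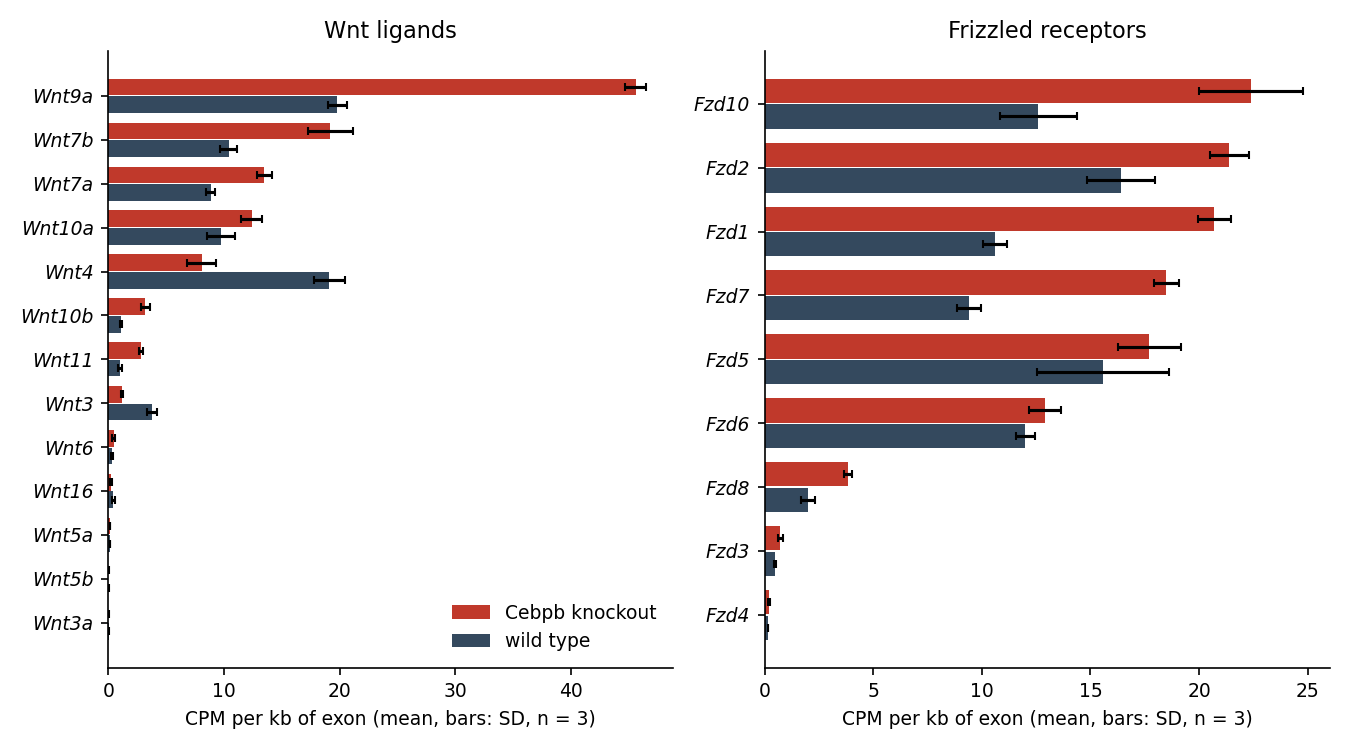
Length-scaled level (x axis, CPM per kb of exon, mean with SD over 3 libraries) of the 13 ligands and 9 Frizzled receptors among the members in knockout (upper bar) and wild type cells (lower bar). Wnt9a reaches 45.6 in knockout cells, the wild type bar is clearly longer in Wnt4 (8.06 in knockout and 19.1 in wild type cells) and Wnt3 (1.16 and 3.77), and 6 of these Frizzled genes exceed 10 CPM per kb in knockout cells.

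The export genes differed from each other. Porcn was at 18.2, 20.2 and 20.1 CPM in the knockout libraries, against 95.7, 82.7 and 89.5 CPM in the wild type libraries. It fell by 2.19 ± 0.08 log2 units, the largest fall of any tested member (edgeR adjusted p = 2.1e-12), and this held in every alternative fit, between -2.25 and -2.14 when single libraries were left out. Porcn lies on the X chromosome, and the make-up of the groups by sex differed as given above. The 568 X-linked genes tested had a median log2 fold change of 0.02, and 6 of them, Porcn included, lay at or below its value. Calls were made in 130 of them higher and 116 lower, against 24.8% higher and 23.7% lower over all genes. These values describe the chromosome and not Porcn alone. Sex make-up and genotype cannot be told apart in these libraries, and the part of either in the fall of Porcn was not tested. Wls, the carrier that takes the lipid-bearing ligand to the surface, was at 156 ± 11.4 CPM in knockout and 153 ± 12.9 CPM in wild type cells and was not called (0.03 ± 0.07, edgeR adjusted p = 0.781).

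All 9 Frizzled genes among the members were tested, and their log2 fold changes lay between 0.11 and 0.98 with a median of 0.61. Among them 6 rose (66.7%), 3 were not called and none fell, against 24.8% higher and 23.7% lower over all genes. The other Frizzled gene, Fzd9, lies outside the members and went the other way. It was at 0.588, 0.575 and 0.361 CPM in the knockout libraries, against 1.51, 1.63 and 0.842 CPM in the wild type libraries. Fzd9 was scarce but its groups did not overlap (log2 fold change -1.38 ± 0.30, edgeR adjusted p = 0.00117), and it is named here after its values were seen. Fzd7, a Wnt receptor of intestinal stem cells, was at 86.0, 84.7 and 80.9 CPM in the knockout libraries, against 43.0, 45.04 and 39.9 CPM in the wild type libraries (0.98 ± 0.07 log2 units, edgeR adjusted p = 6.17e-09). Fzd1 showed nearly the same levels and change, from 83.1 to 88.8 CPM in knockout and from 42.0 to 46.5 CPM in wild type libraries (0.97 ± 0.07). Fzd8 ran from 22.1 to 24.1 CPM in knockout and from 10.8 to 14.1 CPM in wild type libraries (0.94 ± 0.11), and Fzd10 from 67.4 to 81.6 and from 36.3 to 47.4 CPM in the same order (0.83 ± 0.10). In each of these 4 genes the groups stood apart by more than their own spread.

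The other called Frizzled members moved less. Fzd3, which guides growing axons, ran from 7.90 to 10.6 CPM in knockout and from 5.39 to 6.84 CPM in wild type libraries (0.61 ± 0.14, edgeR adjusted p = 0.00152). Fzd2 ran from 74.5 to 80.7 and from 54.9 to 66.3 CPM in the same order (0.38 ± 0.07, edgeR adjusted p = 4.27e-04, or 0.58 log2 units with library totals). Fzd6, which sets the direction in which hairs lie, was at 62.3 ± 3.54 CPM in knockout and 57.6 ± 2.12 CPM in wild type cells and was not called (0.11 ± 0.07, edgeR adjusted p = 0.188). Fzd5, needed for yolk sac vessels, was at 122 ± 10.1 CPM in knockout and 108 ± 21.0 CPM in wild type cells, with wild type replicate 1 (132 CPM) above every knockout library. No call was made (0.18 ± 0.12, edgeR adjusted p = 0.239), whereas calls were made without wild type replicate 1 (0.35, edgeR adjusted p = 6.95e-04), when scarce genes were kept in the fit (0.18, edgeR adjusted p = 0.0264) and with library totals (0.38, edgeR adjusted p = 0.00697). Fzd4, the receptor of norrin in retinal vessels, was scarce, at 1.26 ± 0.377 CPM in knockout and 1.05 ± 0.0492 CPM in wild type cells, and was not called (edgeR adjusted p = 0.416).

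Per kb of exon, Fzd10 (22.4 ± 2.38), Fzd2 (21.4 ± 0.909) and Fzd1 (20.7 ± 0.767 CPM per kb) led in knockout cells and did not differ beyond their spread. Fzd2 (16.4 ± 1.58) and Fzd5 (15.6 ± 3.04 CPM per kb) led in wild type cells, again within their spread. Fzd8, Fzd3 and Fzd4 were the lowest of the 9 members in both groups. Fzd9 was as low as these, at 0.222 ± 0.0558 CPM per kb in knockout and 0.579 ± 0.185 CPM per kb in wild type cells. The sum over the 9 members was 118 ± 3.42 CPM per kb in knockout and 79.2 ± 5.20 CPM per kb in wild type cells (SD, n = 3 each).

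The LRP co-receptors were not called. Lrp5 was at 39.4 ± 1.56 CPM in knockout and 37.2 ± 4.45 CPM in wild type cells (0.08 ± 0.09, edgeR adjusted p = 0.451), and Lrp6 at 35.1 ± 3.72 and 34.3 ± 4.70 CPM in the same order (0.04 ± 0.10, edgeR adjusted p = 0.797).

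Lgr6, which marks stem cells in the upper hair follicle, had 402, 454 and 335 counts in the knockout libraries, against 4, 11 and 41 in the wild type libraries, or 4.22, 4.58 and 3.90 CPM against 0.0359, 0.0946 and 0.411 CPM. The knockout libraries agreed closely, while wild type replicate 3 stood well above the other wild type libraries and still far below every knockout library. The difference of 4.60 ± 0.52 log2 units became 5.98 without wild type replicate 3, and no test is given because the gene was listed for its rise. Its relatives behaved otherwise. Lgr4, which most epithelia use, was at 6.62, 5.08 and 4.90 CPM in the knockout libraries and 4.19, 6.63 and 5.01 CPM in the wild type libraries. The groups overlapped and Lgr4 was not called (0.07 ± 0.17, edgeR adjusted p = 0.775). Lgr5, the marker of cycling follicle stem cells, had 1, 4 and 1 counts in the knockout libraries against 0 in each wild type library, which allows up to 0.0301 CPM per library. Of 12 other markers of hair follicle and gland cells, 5 rose (Cd34, Lhx2, Nfatc1, Lrig1 and Fgf5), 5 fell (Krt15, Sox9, Plet1, Krt79 and Krt17), Tbx1 was not called and Shh was at 0 counts. Cd34 had 37, 19 and 28 counts in the knockout libraries, against 1, 5 and 4 in the wild type libraries. It passed the filter on low counts through the knockout libraries, so its rise is only described. The 12 markers summed to 6450 to 7010 CPM in knockout and 15100 to 15600 CPM in wild type libraries, most of it Krt17. The part of these markers in the Lgr6 result was not tested.

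**Figure D3:**
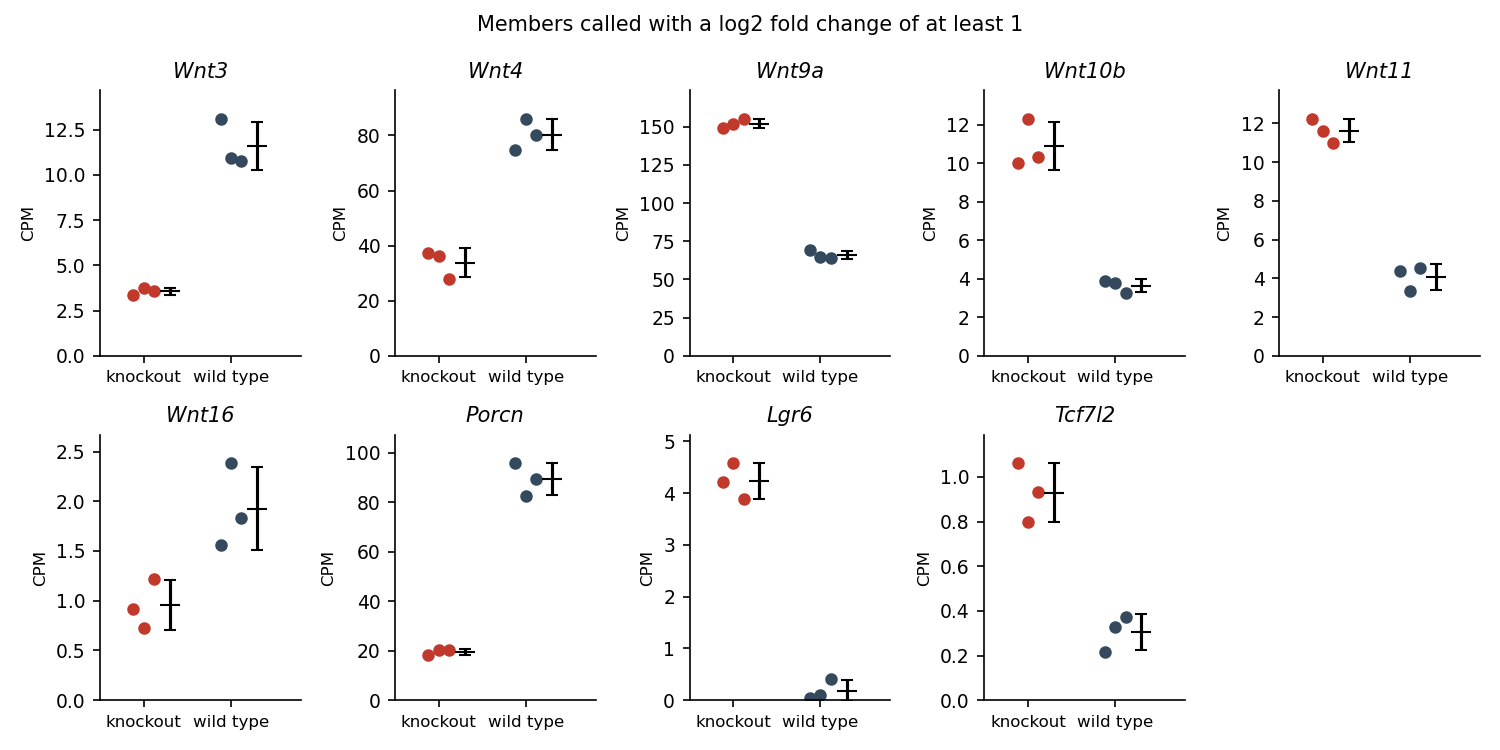
CPM by library (points) with mean (dash) and SD (bars, cut off where they would pass below 0) of the 9 members called with at least 1 log2 unit. Knockout is left and wild type right in each panel, with its own axis. In every panel the groups are apart, and in Lgr6 wild type replicate 3 (0.411 CPM) lies above the other wild type libraries.

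The ubiquitin ligases that Lgr receptors counter were not called. Rnf43 was at 4.90 ± 0.643 CPM in knockout and 5.14 ± 0.289 CPM in wild type cells (edgeR adjusted p = 0.724), and Znrf3 at 0.981 ± 0.404 and 1.09 ± 0.297 CPM in the same order (edgeR adjusted p = 0.709). In both genes 1 knockout library, replicate 6 for Rnf43 and replicate 5 for Znrf3, was below the rest.

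Of the 4 secreted inhibitors, 1 rose, 1 was not called and 2 were too scarce to be tested. Dkk3, a divergent Dickkopf protein, ran from 30.8 to 36.1 CPM in knockout and from 20.4 to 25.0 CPM in wild type libraries (0.50 ± 0.09, edgeR adjusted p = 3.31e-04). Sfrp1, which binds Wnt proteins outside the cell, was at 2.05 ± 0.332 CPM in knockout and 2.15 ± 0.275 CPM in wild type cells and was not called (-0.07 ± 0.19, edgeR adjusted p = 0.777). Dkk1, the main inhibitor of Lrp5 and Lrp6, had 0 counts in all 6 libraries. Wif1, another Wnt-binding protein, had 16, 0 and 5 counts in the knockout libraries, against 1, 0 and 1 in the wild type libraries, too few to set the groups apart.

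Inside the cell, Ctnnb1 was even across the libraries, from 1382 to 1411 CPM in knockout and from 1346 to 1404 CPM in wild type libraries (0.01 ± 0.05, edgeR adjusted p = 0.843). Its RNA says nothing on the amount or place of β-catenin protein, which the pathway controls. Axin1, a scaffold of the destruction complex, was at 47.7 ± 2.98 CPM in knockout and 55.9 ± 6.33 CPM in wild type cells and was called lower (-0.23 ± 0.08, edgeR adjusted p = 0.0308), although the groups overlapped. That call was lost with library totals (-0.03), and without wild type replicate 2 (-0.15), wild type replicate 3 (-0.24), knockout replicate 5 (-0.19) or knockout replicate 6 (-0.23). Apc, the other scaffold, was at 51.3 ± 4.40 CPM in knockout and 42.9 ± 7.21 CPM in wild type cells and just missed the threshold (0.26 ± 0.10, edgeR adjusted p = 0.0507). It was called higher without wild type replicate 2 (0.38, edgeR adjusted p = 0.004), without knockout replicate 5 (0.31, edgeR adjusted p = 0.0459), and in 4 other fits.

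Both TCF/LEF factors tested among the members rose. Tcf7l1, a TCF/LEF gene outside the members, is counted with the nuclear cofactors below and is named here after its values were seen. Tcf7l1 was at 1.32 ± 0.452 CPM in knockout and 0.836 ± 0.134 CPM in wild type cells. Its groups overlapped and it was not called (0.66 ± 0.28, edgeR adjusted p = 0.0581). Tcf7l2, the main partner of β-catenin in gut epithelium, was at 1.06, 0.797 and 0.931 CPM in the knockout libraries, against 0.215, 0.327 and 0.371 CPM in the wild type libraries. It was low in every library and the groups did not overlap (1.61 ± 0.31 log2 units, edgeR adjusted p = 4.6e-04). Tcf7 ran from 4.001 to 5.72 CPM in knockout and from 2.91 to 3.62 CPM in wild type libraries (0.65 ± 0.16, edgeR adjusted p = 0.00321). Lef1, the TCF/LEF factor of the hair shaft precursors, had 2, 5 and 2 counts in the knockout libraries, against 13, 2 and 15 in the wild type libraries, and was not tested. An antisense transcript shares 13.7% of its exon bases, and its reads cannot be told apart from those of Lef1 without a stated strand setting.

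Of the 4 feedback targets 1 fell, and the other 3 had no call. Their median was -0.33 log2 units. Axin2, the most widely used readout of β-catenin signalling, was at 17.5, 17.0 and 15.9 CPM in the knockout libraries, against 22.9, 23.7 and 23.9 CPM in the wild type libraries. The spread within each group was small and the groups were apart (log2 fold change -0.48 ± 0.08, edgeR adjusted p = 1.81e-04, or -0.28 with library totals, adjusted p = 0.0156). Nkd1, which binds Dishevelled and damps the pathway, was at 0.273, 0.262 and 0.0814 CPM in the knockout libraries and 0.197, 0.576 and 0.431 CPM in the wild type libraries. The groups overlapped through wild type replicate 1, and Nkd1 was called lower only when that library was left out (-1.28, edgeR adjusted p = 0.0465, against -0.95 ± 0.51 and adjusted p = 0.141 with it). Its relative Nkd2 was at 5.05, 3.19 and 3.69 CPM in the knockout libraries and 3.84, 5.23 and 4.45 CPM in the wild type libraries, with wide overlap (edgeR adjusted p = 0.429). Sp5, a zinc finger gene that β-catenin switches on in embryos, had 1, 27 and 4 counts in the knockout libraries, against 16, 5 and 16 in the wild type libraries. The highest and the lowest library were both knockout, and no call was made (edgeR adjusted p = 0.974).

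**Figure D4:**
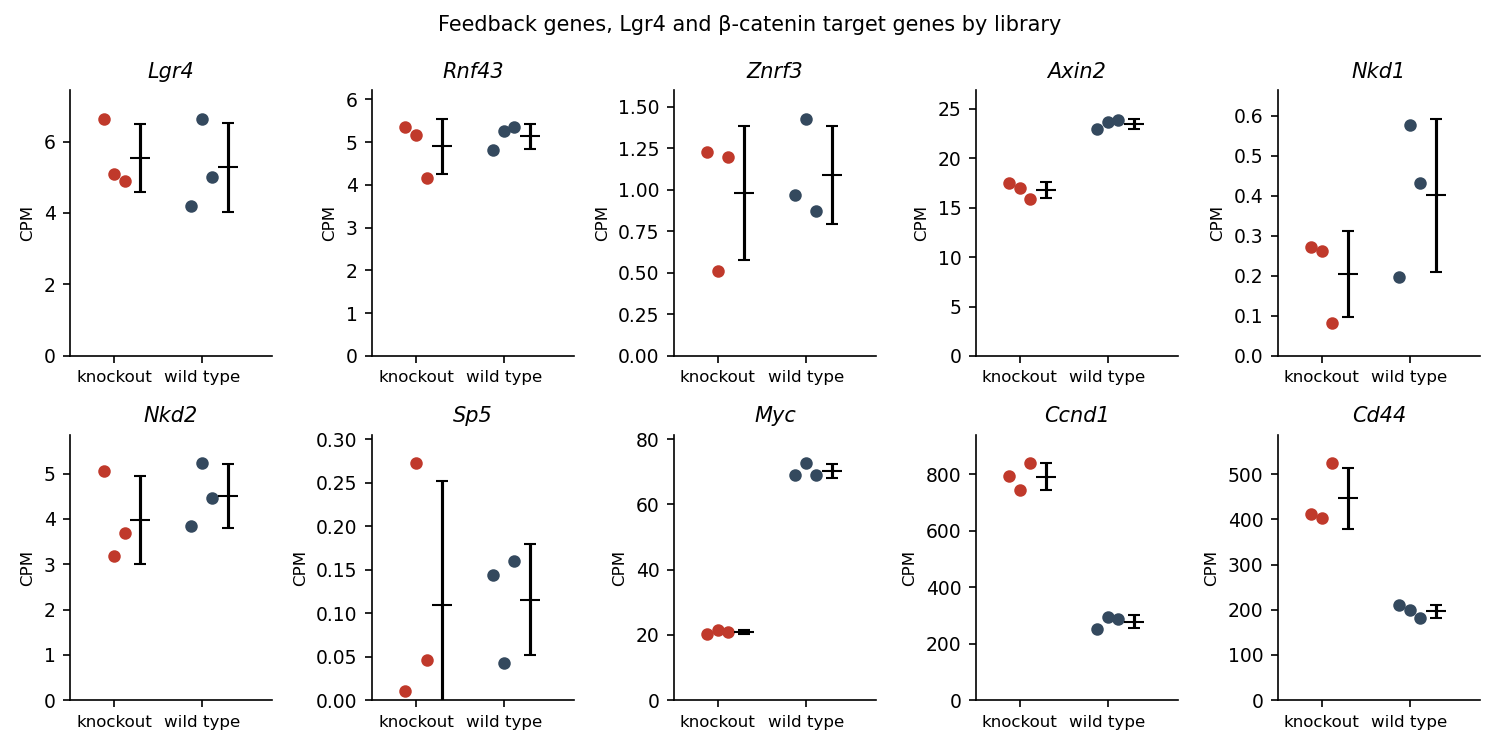
CPM by library (points) with mean (dash) and SD (bars, cut off where they would pass below 0), knockout left and wild type right. Shown are the feedback targets, Lgr4, the ubiquitin ligase genes and 3 widely studied β-catenin target genes. Axin2 is lower in all knockout libraries, Myc lower and Ccnd1 and Cd44 higher, while in the other panels the groups overlap.

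A further 88 genes of the pathway were listed by function, of which 87 matched an identifier and 68 were tested. In this wider set 28 genes rose (41.2% of those tested), 15 fell (22.1%) and 25 had no call, against 24.8% higher and 23.7% lower over all genes. The 6 ligand genes outside the members (Wnt1, Wnt2, Wnt2b, Wnt8a, Wnt8b and Wnt9b) were all too scarce to be tested. Of the 4 R-spondins, the ligands of the Lgr receptors, only Rspo1 could be tested. Rspo1, named here after its values were seen, had 77, 51 and 29 counts in the knockout libraries, against 7, 1 and 0 in the wild type libraries. It passed the filter on low counts through the knockout libraries, so no test is given for it, although the count of 28 includes it. The same holds for Sfrp2 (below). At 0.554 ± 0.238 CPM in knockout and 0.0238 ± 0.0340 CPM in wild type cells it was a scarce transcript, and its fold change depends on very few wild type reads.

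Among 10 other receptors and co-receptors, 2 rose and 2 fell, Fzd9 (above) and Ror1. The co-receptor gene Ptk7 rose to 144 ± 5.62 CPM in knockout cells, against 78.1 ± 4.66 CPM in wild type cells, and Ror1, a receptor of Wnt5a, fell to 2.17 ± 0.0787 CPM in knockout cells, against 4.90 ± 0.966 CPM in wild type cells. Kremen1, a receptor of Dickkopf proteins, rose by 0.31 ± 0.10, a call lost without wild type replicate 1 (0.24, edgeR adjusted p = 0.0585) or knockout replicate 4 (0.22, edgeR adjusted p = 0.108), and 0.51 with library totals. Of 13 other genes for secreted or membrane-bound antagonists 7 were tested, with 3 higher and 1 lower. The 3 include the scarce Sfrp2, named here after its values were seen. Sfrp2 had 39, 49 and 47 counts in the knockout libraries, against 10, 8 and 8 in the wild type libraries. It passed the filter on low counts through the knockout libraries, so no test is given for it. Trabd2b, whose product cleaves Wnt proteins, fell by 1.60 ± 0.22 log2 units, Apcdd1, a membrane inhibitor that is mutated in inherited hair loss, rose by 0.86 ± 0.18, and Sostdc1, a secreted inhibitor of both Wnt and BMP signalling, rose by 0.67 ± 0.22. The call of Sostdc1 was lost without wild type replicate 1 (0.58, edgeR adjusted p = 0.0585), wild type replicate 2 (0.54, edgeR adjusted p = 0.0768) or knockout replicate 5 (0.60, edgeR adjusted p = 0.0755).

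Among 14 Dishevelled and destruction complex genes 5 rose and 4 fell. Apc2, a relative of Apc, was at 10.3 ± 0.664 CPM in knockout and 3.27 ± 0.304 CPM in wild type cells (1.66 ± 0.13 log2 units). Amer1, a membrane anchor of Apc that lies on the X chromosome, rose by 1.09 ± 0.13, and Tnks, which marks Axin for removal, by 0.66 ± 0.10. Dvl1 (0.28 ± 0.07) and Dvl3 (0.33 ± 0.06) rose less. The 4 that fell were Csnk1a1 (-0.63 ± 0.05), Gsk3a (-0.50 ± 0.06), Dvl2 (-0.46 ± 0.08) and Csnk1d (-0.38 ± 0.05). They were more abundant than Apc2, with Csnk1a1 at 432 ± 11.9 CPM in knockout and 667 ± 10.8 CPM in wild type cells. Of 11 tested nuclear cofactors 3 rose and 2 fell. The β-catenin co-activator genes Pygo1 (1.23 ± 0.23) and Bcl9 (0.74 ± 0.11) were among those that rose. The co-activator gene Pygo2 fell by a small amount (-0.19 ± 0.06, edgeR adjusted p = 0.0125). Pygo2 was at 167 ± 7.93 CPM in knockout and 190 ± 4.32 CPM in wild type cells. The co-repressor gene Tle3, at 179 ± 10.2 CPM in knockout and 279 ± 15.5 CPM in wild type cells, fell by 0.64 ± 0.06. Tle1, Tle2 and Tle4 were not called.

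The planar polarity branch, which orients cells within the sheet and hairs in the skin, had 7 of its 14 genes higher and 4 lower, and its median was 0.37 log2 units. Celsr1, a cadherin that aligns hair follicles, was at 20.7 ± 1.96 CPM in knockout and 8.42 ± 0.775 CPM in wild type cells (1.30 ± 0.11). The Dishevelled-binding genes Dact2 and Dact1 moved apart, with Dact2 up by 1.28 ± 0.10 and Dact1 down (-0.84 ± 0.17). Of 12 tested genes among 15 further targets of β-catenin in other tissues, 7 rose and 2 fell (median 0.51). Ccnd1, the G1 cyclin, was at 791 ± 47.6 CPM in knockout and 278 ± 23.6 CPM in wild type cells (1.51 ± 0.07), and the hyaluronan receptor gene Cd44 at 447 ± 67.3 and 197 ± 14.6 CPM in the same order (1.18 ± 0.09). Myc, at 20.9 ± 0.662 CPM in knockout and 70.2 ± 2.10 CPM in wild type cells, fell by 1.75 ± 0.07. Many other pathways act on these 3 genes too, and they moved in both directions beside an Axin2 that fell.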

How the data were processed

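The authors deposited a single table of unnormalised counts by Ensembl gene, covering 6 libraries of paired reads; the values are whole and sum differently in each. The submitters' processing notes name the builds mm39 and GRCm39 and the tools STAR, HTSeq, FastQC and DESeq2. Tool versions, annotation release and strand setting: not given in the sources used here. Columns were matched to samples by the library name in the labels.

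Counts were tested with edgeR 4.0.16 (R 4.3.3), using its quasi-likelihood test with robust dispersion, TMM scaling, filterByExpr at 10 counts (17659 genes left of 55416) and genotype as the only factor. Calls were made at a Benjamini-Hochberg adjusted p under 0.05 over all genes. The SE of a log2 fold change comes from its ratio to the root of the F statistic. The code was tested on simulated data with 200 changed genes. The biological coefficient of variation was 0.109, and depth, with 3 counts at 0.0349 CPM or less, limits only the scarcest genes; such floors cover counting error only.

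Exon lengths, X-linkage and exon overlaps came from GENCODE M21, an older build, without its coordinates. Exons of 8 members overlap other genes, whose mean counts are at most 1.75% of the member's, apart from Lef1.

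Members and lists were chosen with earlier results of these data known. All 45 members are named. Library values are given for members called with at least 1 log2 unit and at least 10 counts in a library, and for tested Lgr receptors and feedback targets. Of each further list, the 3 largest changes at most are named, among called genes averaging 1 CPM or more. Rspo1, Fzd9, Sfrp2, Tcf7l1 and further Dishevelled, destruction complex, Pygo and Tle genes were added after their values were seen. Alternatives were DESeq2 size factors, library totals, no filter, a mean of at least 1 CPM, DESeq2 (1.42.0), limma voom (3.58.1), no robust estimation, leaving out each library, and the longest transcript as length.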

Additional observations from a re-analysis of the deposited data

How the results depend on the processing

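Of the 22 called members, 20 kept direction and call in every alternative in which they were tested; Wnt10a and Axin1 did not, as given above. With library totals in place of TMM the all-gene median was 0.20 log2 units higher. The calls over all genes became 6478 higher and 2452 lower, a share of higher calls of 72.5% against 51.1%, and those of the members 22 and 5. The cause was not tested. Newly called higher there were Wls (0.23), Fzd5 (0.38), Fzd6 (0.31), Lrp5 (0.28), Ctnnb1 (0.21) and Apc (0.46), which took the counts of called genes to 1 higher among export genes, 1 higher among LRP co-receptors, and 2 higher and 0 lower among β-catenin and its scaffolds. Medians by role became 0.59 for ligands, -0.88 for export, 0.81 for Frizzled genes, 0.26 for co-receptors, 0.41 for secreted inhibitors and 0.21 for β-catenin and its scaffolds. Signs turned, all without a call, in Rnf43 (0.13), Znrf3 (0.04), Sfrp1 (0.12), Nkd2 (0.02) and Sp5 (0.15). With no filter Fzd5 was also called. Apc was called, as 1 higher scaffold, with no filter, with a mean of at least 1 CPM and with limma voom. A mean of at least 1 CPM dropped Tcf7l2, so 1 TCF/LEF factor among the members was called there, at a median of 0.67.

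With single libraries left out, members called ran from 15 to 17 higher and from 5 to 7 lower, β-catenin and its scaffolds from 0 to 1 higher and from 0 to 1 lower, and feedback targets from 1 to 2 lower. The ligand median ran from 0.32 to 0.58 and the Lgr median from 2.01 to 3.0. Members near 0 changed sign, none with a call: Wls (-0.03 to 0.09), Lrp5 (-0.01 to 0.17), Lrp6 (-0.07 to 0.12), Lgr4 (-0.08 to 0.27), Rnf43 (-0.14 to 0.04), Znrf3 (-0.36 to 0.15), Sfrp1 (-0.18 to 0.05), Ctnnb1 (-0.01 to 0.02) and Sp5 (-1.99 to 0.49). With the longest transcript as length the order of the 13 ligands was the same in both groups, and the share of Wnt7b was 23.7% in knockout and 18.7% in wild type cells, against 18.0% and 13.9%. No paired analysis was possible because the groups share no replicate numbers. Depth limits Dkk1, Lgr5, Wnt3a, Wnt5b, Wif1, Lef1, Sp5 and Nkd1.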
